A study of Monodelphis domestica with 5 samples.

Results

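Peaks of 4 histone modifications were examined on the sequence of the opossum (*Monodelphis domestica*) assembly MonDom5 that is not placed on any chromosome and is listed there as chrUn. The members were all peaks on chrUn with a score of at least 50 in the 4 peak lists, 12061 of 226174 peaks (5.33%). They comprised 3538 peaks of H3K4me3, 848 of H3K9Ac, 5496 of H3K9me3 and 2179 of H3K27me3. The score expresses how improbable MACS, the peak caller, judged a peak to be against input chromatin, and is the negative log10 of that probability multiplied by 10, so that 50 stands for 1e-05. The lists came from primary ear fibroblasts, at passage 4 to 6, of 1 adult male (A0514), an F1 animal from an LL1 mother crossed with an LL2 father, LL1 and LL2 being laboratory stocks. The study's methods give a lower passage number than the labels. Native chromatin, which is digested with micrococcal nuclease without cross-linking, was precipitated with 1 antibody per mark, giving 1 library per mark and 1 input library. All groups therefore share the animal, the culture and the input, and there is no replicate error for any value and no test between marks. The labels say that chromatin was pooled for sisters only. In place of replicates, the value on unplaced sequence was set beside chr1 to chr8 together and beside each of these 8 autosomes, and counts and shares carry exact 95% intervals that cover counting error only. The peak lists hold no read counts, so the depth behind a peak is not known here, and they hold no expression values by which the cell type could be checked.

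H3K4me3 and H3K9Ac are marks of activation (MOAs): trimethylation of lysine 4 is found at the starts of active and poised genes, and acetylation of lysine 9 at active promoters and enhancers. H3K9me3 and H3K27me3 are marks of repression (MORs). H3K9me3 is bound by HP1 and is typical of constitutive heterochromatin, including satellite repeats and silenced transposable elements, whereas H3K27me3 is deposited by the Polycomb complex PRC2, mostly at silent developmental genes. H3K4me3 with H3K27me3 is known as bivalent marking. Sequence is commonly left unplaced where repeats prevent its assembly into a chromosome. How the pieces of chrUn were ordered is not given in the sources used here, and neither the sequence nor a gene annotation of MonDom5 was used.

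Unplaced sequence was denser than every autosome in peaks of H3K27me3, H3K9me3 and H3K4me3, and sparser than every autosome in peaks of H3K9Ac. H3K27me3 had 21.1 peaks per Mb (interval 20.2 to 22.0) on chrUn, against 1.31 on chr1 to chr8 and from 1.004 on chromosome 7 to 1.59 on chromosome 1, a ratio of 16.1. H3K9me3 had 53.2 peaks per Mb (51.8 to 54.7) against 23.9, with the autosomes from 21.0 to 28.8. H3K4me3 had 34.3 peaks per Mb (33.2 to 35.4) against 21.9, with the autosomes from 17.7 to 23.8. H3K9Ac went the other way, with 8.22 peaks per Mb (7.67 to 8.79) against 14.9, below the lowest autosome at 11.5. In bases the differences were larger: H3K27me3 covered 10.9% of chrUn and 0.308% of chr1 to chr8, and H3K9me3 covered 26.0% and 5.27%. For H3K27me3 this is 11.2 Mb on unplaced sequence and 10.5 Mb on all of chr1 to chr8, although chrUn made up 2.86% of the length that the peaks span. H3K4me3 covered 11.1% against 5.68%, and H3K9Ac 1.82% against 3.80%. The excess of H3K4me3 rested on weak peaks, since at a score of at least 100 there were 17.2 peaks per Mb on chrUn and 16.9 on chr1 to chr8. At that threshold the H3K27me3 ratio rose to 56.6. How reads with equal matches to several repeat copies were treated is not clear from the sources, and the part of such reads in peaks on chrUn was not tested.

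**Figure D1:**
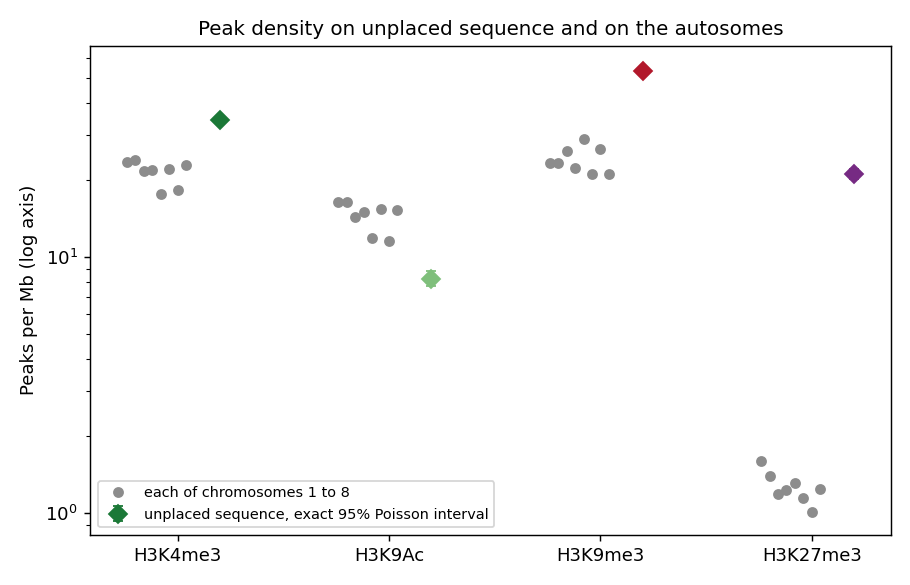
Peaks per Mb (log axis) of each mark with a score of at least 50. Grey points are chromosomes 1 to 8 and coloured diamonds are unplaced sequence with its exact 95% Poisson interval; the diamond lies above all 8 autosomes for H3K4me3, H3K9me3 and H3K27me3 (21.1 against at most 1.59 for the last) and below all 8 for H3K9Ac.

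The repressive peaks on unplaced sequence were wider and had higher scores than those on the autosomes, and the H3K4me3 peaks were wider but had lower scores. The median width of H3K27me3 peaks was 4765 bases on chrUn (quartiles 2770 and 6760) and 2102 bases on chr1 to chr8, where the 8 medians lay between 2062 and 2146. For H3K9me3 the medians were 3949 bases (quartiles 2157 and 6217) and 1926 bases. Peaks of 10 kb and more were frequent among them: 438 H3K9me3 peaks (7.97%) and 153 H3K27me3 peaks (7.02%) on chrUn were that wide, against 161 (0.197%) and 15 (0.335%) on chr1 to chr8. A score of at least 100 was reached by 48.9% of H3K27me3 peaks (interval 46.8% to 51.0%) against 13.9%, and by 66.6% of H3K9me3 peaks (65.3% to 67.8%) against 30.3%. H3K4me3 peaks had a median width of 2685 bases against 1963, but a median score of 100 against 236, and only 50.2% (48.5% to 51.9%) scored at least 100, against 76.9%. H3K9Ac peaks were narrower (1811 against 2070 bases) with a median score of 187 against 225, and differed least from the autosomes in the share scoring at least 100 (72.9%, interval 69.7% to 75.8%, against 75.04%). For every mark the median width and the median score on chrUn lay outside the range of the 8 autosomes. A score grows with the width of a peak, and the parts of width and enrichment in these scores were not tested.

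**Figure D2:**
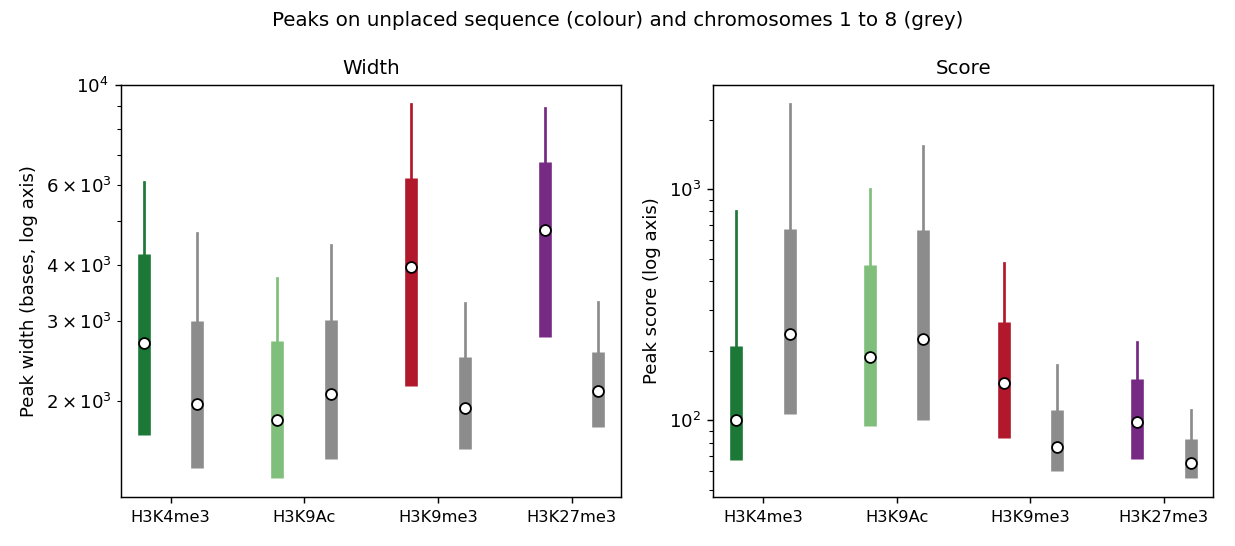
Peak width in bases (left) and peak score (right), both on log axes, for unplaced sequence (colour) and chromosomes 1 to 8 (grey). Thick bars span the quartiles, thin lines reach the 90th percentile and white points are medians; median width rises from 2102 to 4765 bases for H3K27me3, while the median H3K4me3 score falls from 236 to 100.

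To describe mark combinations, peaks of the 4 marks that shared at least 1 base were merged into regions, 6734 on chrUn and 159650 on chr1 to chr8, and each region was classed by the marks it held. The clearest difference lay in regions with all 3 methylation marks, H3K4me3, H3K9me3 and H3K27me3, and no H3K9Ac. There were 1091 of these on unplaced sequence (16.2% of regions, interval 15.3% to 17.1%) and 110 on chr1 to chr8 (0.0689%, interval 0.0566% to 0.0830%), and in no autosome was the share above 0.0979%. Per Mb this is 10.6 against 0.0321, a ratio of 329, and 90.8% of the 1201 such regions in the assembly lay on chrUn. With a score of at least 100 required of every peak, the share of this combination was 5.65% on chrUn, against 0.0396% on chr1 to chr8. The pairs within this combination were also frequent. H3K9me3 with H3K27me3 alone made up 778 regions (11.6%) against 1.02%, and H3K4me3 with H3K9me3 alone 675 regions (10.02%) against 0.847%. The third pair, H3K4me3 with H3K27me3 without H3K9me3, was rare in both, with 15 regions (0.223%) on chrUn and 155 (0.0971%) on chr1 to chr8.

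The most frequent combinations with acetylation were scarcer on unplaced sequence, whereas all 4 marks together were more frequent. The pair typical of active promoters, H3K4me3 with H3K9Ac, made up 662 regions (9.83%, interval 9.13% to 10.6%) against 25.9% on chr1 to chr8, and at least 19.8% on each autosome. H3K4me3 alone made up 8.55% against 18.2%, and H3K9Ac alone 1.11% against 3.16%. H3K9me3 alone was the most frequent class in both, with 2694 regions (40.01%) on chrUn and 48.3% on chr1 to chr8. H3K4me3, H3K9Ac and H3K9me3 without H3K27me3 were found in 25 regions on chrUn (0.371%) and in 0.831% of regions on chr1 to chr8. All 4 marks were found in 13 regions (0.193%) against 60 (0.0376%). The study's criteria for candidate imprinted genes asked for H3K4me3, H3K9Ac and H3K9me3 peaks at a putative promoter with a CpG island. Those criteria left H3K27me3 aside, and regions of both classes hold peaks of these 3 marks. Merging does not require each pair of peaks in a region to overlap, and promoters were not used here. In all, regions with 3 marks made up 16.6% on chrUn and 0.948% on chr1 to chr8, and regions with 1 mark 51.5% and 71.2%.

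**Figure D3:**
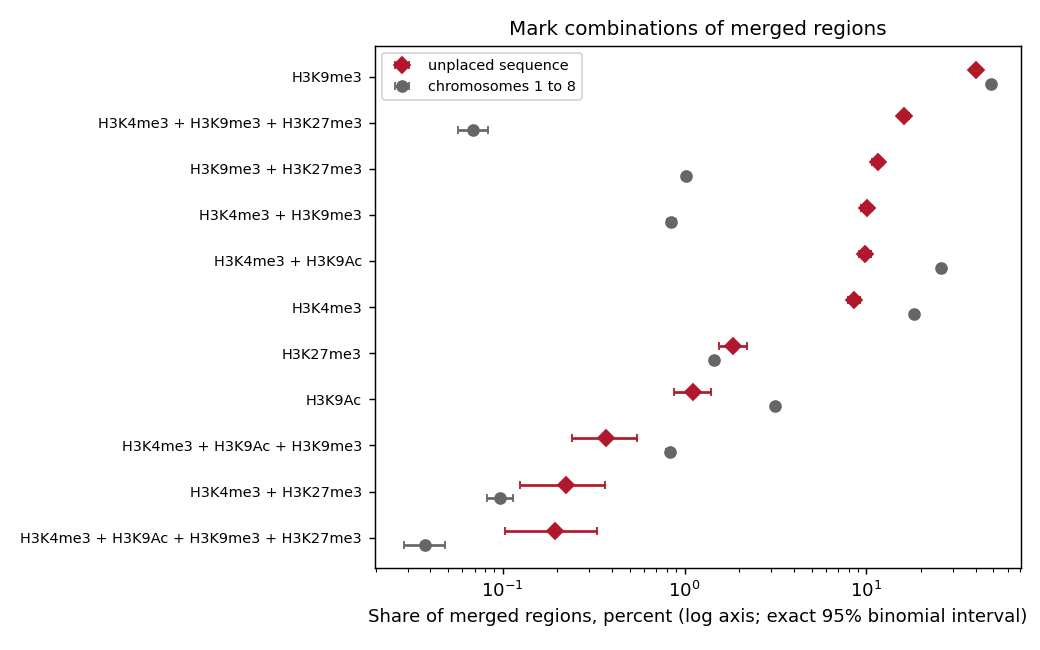
Share of merged regions (percent, log axis) in each mark combination with more than 10 regions on unplaced sequence, for unplaced sequence (red diamonds) and chromosomes 1 to 8 (grey points), with exact 95% binomial intervals. H3K4me3 + H3K9me3 + H3K27me3 stands at 16.2% against 0.0689%, and H3K4me3 + H3K9Ac at 9.83% against 25.9%.

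Within the 1091 regions carrying the 3 methylation marks, the marks lay on top of each other rather than side by side. The median region was 6953 bases wide (quartiles 5216 and 9411) and held 3 peaks. H3K9me3 covered a median of 99.2% of the region (lower quartile 97.9%), H3K27me3 98.1% (71.1% and 99.4%) and H3K4me3 73.1% (52.3% and 93.4%). The 110 autosomal regions of this class were of like width, with a median of 6205 bases, but the marks shared less of them: the medians were 77.7% for H3K9me3, 50.9% for H3K27me3 and 35.9% for H3K4me3. On chrUn these regions took up 8.48 Mb, 27.3% of all bases in merged regions, against 0.233% on chr1 to chr8.

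Nearly all H3K27me3 peaks on unplaced sequence coincided with H3K9me3. Of the 2179 peaks, 2028 overlapped H3K9me3 (93.1%, interval 91.9% to 94.1%), compared with 42.2% on chr1 to chr8 and at most 46.3% on any autosome. Where they overlapped, a median of 99.4% of the H3K27me3 peak was covered, against 81.2%. H3K4me3 was shared by 1174 H3K27me3 peaks (53.9%, interval 51.8% to 56.0%) against 8.54%, and this followed H3K9me3. Of the H3K27me3 peaks on chrUn with H3K9me3, 56.7% held H3K4me3, and of those without H3K9me3, 16.6% (25 of 151). On chr1 to chr8 the order was the other way, with 6.55% and 9.99%. Thus 97.9% of the H3K27me3 peaks on chrUn that overlapped H3K4me3 also overlapped H3K9me3, against 32.4% on chr1 to chr8. H3K27me3 with H3K9Ac was rare in both, with 17 peaks (0.780%, interval 0.455% to 1.25%) on chrUn and 51 (1.14%, interval 0.848% to 1.49%) on chr1 to chr8. Only 125 H3K27me3 peaks (5.74%) lay apart from every other mark, against 52.0% on chr1 to chr8. They were wider at the median than the solitary autosomal ones (2409 against 2022 bases), with a like median score (64.4 against 63.6). The 1139 H3K27me3 peaks with H3K4me3 and H3K9me3 only were the widest and highest-scoring large group, with medians of 5297 bases and 118.59.

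Wider and stronger peaks have more room to overlap, so the shares were also set side by side within classes of equal width or score. These classes do not equalise how much of the sequence the partner mark covers. H3K9me3 covered 26.0% of chrUn and 5.27% of chr1 to chr8, and H3K4me3 covered 11.1% and 5.68%. The part of this coverage in the overlap shares was not tested. Among H3K27me3 peaks 2000 to 3000 bases wide, 86.5% on chrUn and 44.1% on chr1 to chr8 overlapped H3K9me3, and 42.7% and 7.45% overlapped H3K4me3. Among H3K27me3 peaks with scores from 50 to 60, 82.8% and 38.1% overlapped H3K9me3. The higher share on chrUn was present in each of 6 width classes and 6 score classes for both partners. It depended on weak H3K4me3 peaks to a large part, however. With a score of at least 100 required of both marks, 26.0% of H3K27me3 peaks on chrUn overlapped H3K4me3, against 17.0% on chr1 to chr8.

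H3K9me3 peaks on unplaced sequence were less often solitary than elsewhere. Of the 5496 peaks, 2694 (49.0%) overlapped no other mark, against 94.2% on chr1 to chr8, and 2051 (37.3%, interval 36.0% to 38.6%) overlapped H3K27me3, against 2.38%. H3K4me3 was shared by 1897 (34.5%, interval 33.3% to 35.8%) against 3.55%. Strong peaks carried more of this overlap: of H3K9me3 peaks with a score of at least 200, 59.6% on chrUn and 13.2% on chr1 to chr8 overlapped H3K4me3, and of those with scores from 50 to 60, 7.35% and 1.84%. Solitary H3K9me3 peaks scored 97.1 at the median and were 2514 bases wide, whereas those with H3K4me3 and H3K27me3 scored 240 and were 6178 bases wide. H3K9Ac was shared by 40 H3K9me3 peaks (0.728%, interval 0.520% to 0.9898%), fewer in proportion than on chr1 to chr8 (1.28%).

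Most H3K4me3 peaks on unplaced sequence coincided with H3K9me3, a smaller group coincided with H3K9Ac, and 576 (16.3%) overlapped no other mark, against 38.8% on chr1 to chr8. The majority with H3K9me3 rested on weak H3K4me3 peaks. Of those scoring 50 to 60 on chrUn, 81.7% overlapped H3K9me3 and 2.33% H3K9Ac. Of the 915 scoring at least 200, 17.5% and 64.3% did so, beside 4.15% and 83.4% on chr1 to chr8. With a score of at least 100 required of both marks, 42.2% overlapped H3K9me3, against 2.28%. H3K9Ac was shared by 736 of 3538 peaks (20.8%, interval 19.5% to 22.2%) against 58.9%, and H3K9me3 by 2246 (63.5%, interval 61.9% to 65.1%) against 3.94%. These overlaps hardly coincided: 1.87% of the H3K4me3 peaks with H3K9me3 carried H3K9Ac, and 53.7% of those without H3K9me3. On chr1 to chr8 these shares were 46.3% and 59.4%. The 1.87% mostly describes the later part of chrUn, since 2171 of the 2246 peaks lay beyond its first 40 Mb. In the first 20 Mb, 22 regions held H3K4me3 and H3K9me3 alone and 7 held H3K9Ac as well. In the next 20 Mb there were 14 and 9, and from 80 Mb on 286 and 3. The 690 H3K4me3 peaks with H3K9Ac only had a median width of 2605 bases and a median score of 643, beside 2578 bases and 480 on chr1 to chr8. The 1206 peaks with H3K9me3 and H3K27me3 were wider, at 4067 bases, but scored a median of only 83.1, and the 998 with H3K9me3 only scored 77.2.

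On the autosomes the share with H3K9Ac rose with the width of the H3K4me3 peak throughout, whereas on unplaced sequence it rose to a width of 3 kb and was lower again in wide peaks. Of H3K4me3 peaks 5 to 10 kb wide, 98.5% of 5582 on chr1 to chr8 overlapped H3K9Ac, against 11.4% of 544 on chrUn (interval 8.85% to 14.4%). Of those under 1500 bases wide, 23.2% and 16.4% (interval 13.7% to 19.4%) did so, and of those 2000 to 3000 bases wide, 75.6% and 25.8% (22.9% to 28.9%). Overlap with H3K9me3 was more frequent in wide peaks in both, with 39.3% of the narrowest and 88.4% of the peaks of 5 to 10 kb on chrUn. On chr1 to chr8 it was 3.16% and 5.43%, and 18.4% at 10 kb and more. Of the 45 H3K4me3 peaks on chrUn of at least 10 kb, 9 overlapped H3K9Ac and 36 overlapped H3K9me3, whereas 869 of 870 on chr1 to chr8 overlapped H3K9Ac.

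**Figure D4:**
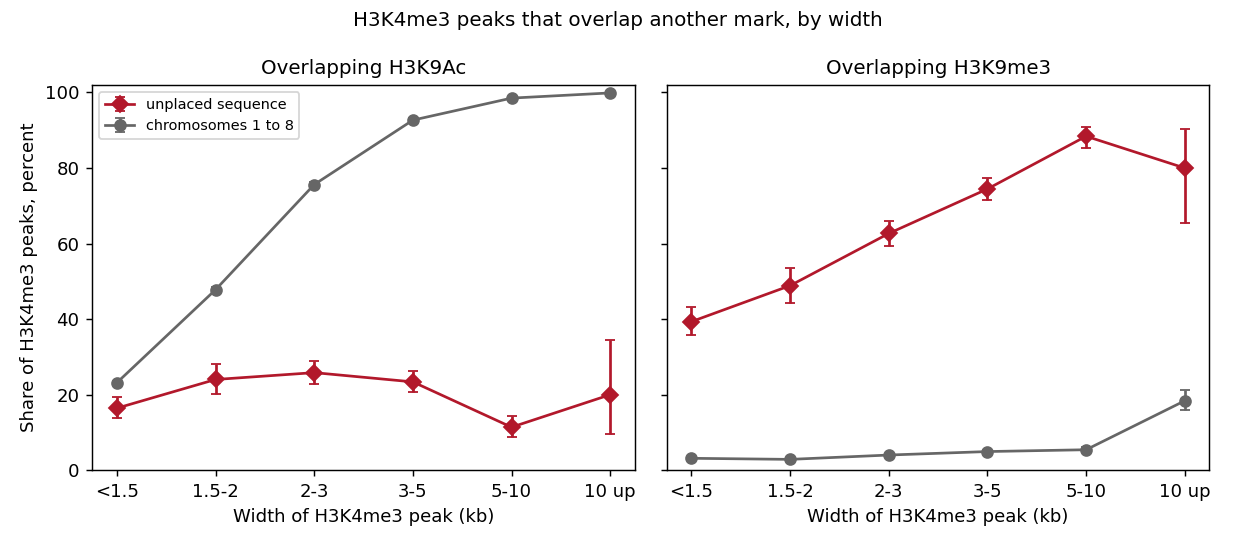
Share of H3K4me3 peaks (percent) that overlap H3K9Ac (left) or H3K9me3 (right) by width of the H3K4me3 peak in kb, for unplaced sequence (red diamonds) and chromosomes 1 to 8 (grey points), with exact 95% binomial intervals. At 5 to 10 kb the shares with H3K9Ac are 11.4% and 98.5%, and those with H3K9me3 are 88.4% and 5.43%.

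H3K9Ac peaks on unplaced sequence overlapped H3K4me3 about as often as elsewhere and the MORs more often. Of the 848 peaks, 770 (90.8%, interval 88.7% to 92.7%) overlapped H3K4me3, beside 90.1% on chr1 to chr8. H3K9me3 was shared by 41 (4.83%, interval 3.49% to 6.50%) against 2.05%, and H3K27me3 by 19 (2.24%, interval 1.35% to 3.48%) against 0.0958%. The MORs also covered more of chrUn, H3K9me3 26.0% against 5.27% and H3K27me3 10.9% against 0.308%. Of the H3K9Ac bases on chrUn, 2.69% lay in H3K9me3 and 1.51% in H3K27me3. The part of coverage in the shares was not tested. Among the pairs examined, the scores of coinciding peaks were related most closely between the MOAs on chr1 to chr8. On chrUn, H3K9me3 with H3K4me3 was about as closely related as the MOAs. Across the 770 H3K9Ac peaks on chrUn with H3K4me3, the Spearman correlation of the scores was 0.42, beside 0.60 on chr1 to chr8. Across the 2028 H3K27me3 peaks on chrUn with H3K9me3 it was 0.11, and across the 1897 H3K9me3 peaks with H3K4me3 it was 0.41, beside 0.15 and -0.04 on chr1 to chr8. These are correlations across peaks, which share their libraries and input and are not replicates.

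Peaks of H3K4me3, H3K9me3 and H3K27me3 lay closer together on unplaced sequence. The median distance from an H3K27me3 peak to the next was 11380 bases on chrUn and 220085 bases on chr1 to chr8, and 72.2% of H3K27me3 peaks (interval 70.3% to 74.1%) had another within 10 kb, against 28.2%. For H3K9me3 the median distance was 2624 against 13152 bases, and 53.8% had a neighbour within 1 kb, against 19.4%. H3K4me3 differed less, with 73.8% against 66.3% having a neighbour within 10 kb, and the order turned with a score of at least 100 (53.5% against 59.1%). H3K9Ac had 52.8% against 59.2% within 10 kb, but 21.6% (18.9% to 24.5%) against 18.0% within 1 kb. Higher density alone brings peaks closer, and distances on chrUn also depend on how the assembly joined its pieces; neither part was tested. Regions of any mark joined over gaps of at most 10 kb formed 1890 chains on chrUn, and 128 of them, with 20 or more peaks each, held 32.2% of the peaks, against 3.85% on chr1 to chr8.

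The marks were distributed very unevenly along chrUn, and the boundaries used here were set after this was seen. In the first 40 Mb, the numbers of H3K4me3, H3K9Ac and H3K9me3 peaks lay within those of the autosomes. By contrast, H3K27me3 and the combinations of H3K9me3 with other methylation marks stayed more frequent. H3K4me3 had 19.0 peaks per Mb there (interval 17.7 to 20.4), H3K9Ac 12.3 (11.3 to 13.5) and H3K9me3 27.1 (25.5 to 28.8). Of the H3K4me3 peaks 56.6% overlapped H3K9Ac, beside 58.9% on chr1 to chr8. H3K27me3 stood apart even there, with 4.12 peaks per Mb (3.52 to 4.80) against at most 1.59 on any autosome, and 70.9% of its peaks overlapped H3K9me3. H3K4me3 with H3K9me3 (9.87% of H3K4me3 peaks) also stayed above the highest autosome at 4.76%. Of the 1091 regions with the 3 methylation marks, 10 lay in these 40 Mb, 3 in the first 20 Mb and 7 in the next, and they made up 0.5504% of its regions against 0.0689% on chr1 to chr8. H3K9me3 with H3K27me3 made up 4.90% against 1.02%. The pair of H3K4me3 and H3K27me3 without H3K9me3 was found in 1 of 941 regions in the first 20 Mb and 0 of 876 in the next. Of the H3K27me3 peaks in the first 40 Mb, 10.3% overlapped H3K4me3, within the autosomal range that reached 10.8%.

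Beyond 40 Mb the picture changed step by step. H3K27me3 rose from 10.8 peaks per Mb in the third stretch of 20 Mb to 34.9 in the fourth and 47.3 in the last 23.2 Mb, while H3K9Ac fell from 8.70 to 5.80 and 2.76. H3K9me3 rose from 40.9 to 74.3 and 90.7 peaks per Mb. H3K4me3 rose from 31.9 to 52.2 and was 47.2 in the last stretch, but the share of its peaks with H3K9Ac fell from 23.0% to 9.77% and 5.20%, and the share with H3K9me3 rose from 55.6% to 82.5% and 87.1%. Regions with the 3 methylation marks made up 9.02%, 25.4% and 26.0% of regions in these stretches. The median H3K4me3 score was 274 in the first stretch and 77.4 in the last, and the median H3K27me3 width was 2494 and 4876 bases. In all, 92.4% of the H3K27me3 peaks and 80.3% of the H3K9me3 peaks on chrUn lay beyond 40 Mb, but 41.7% of the H3K9Ac peaks.

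**Figure D5:**
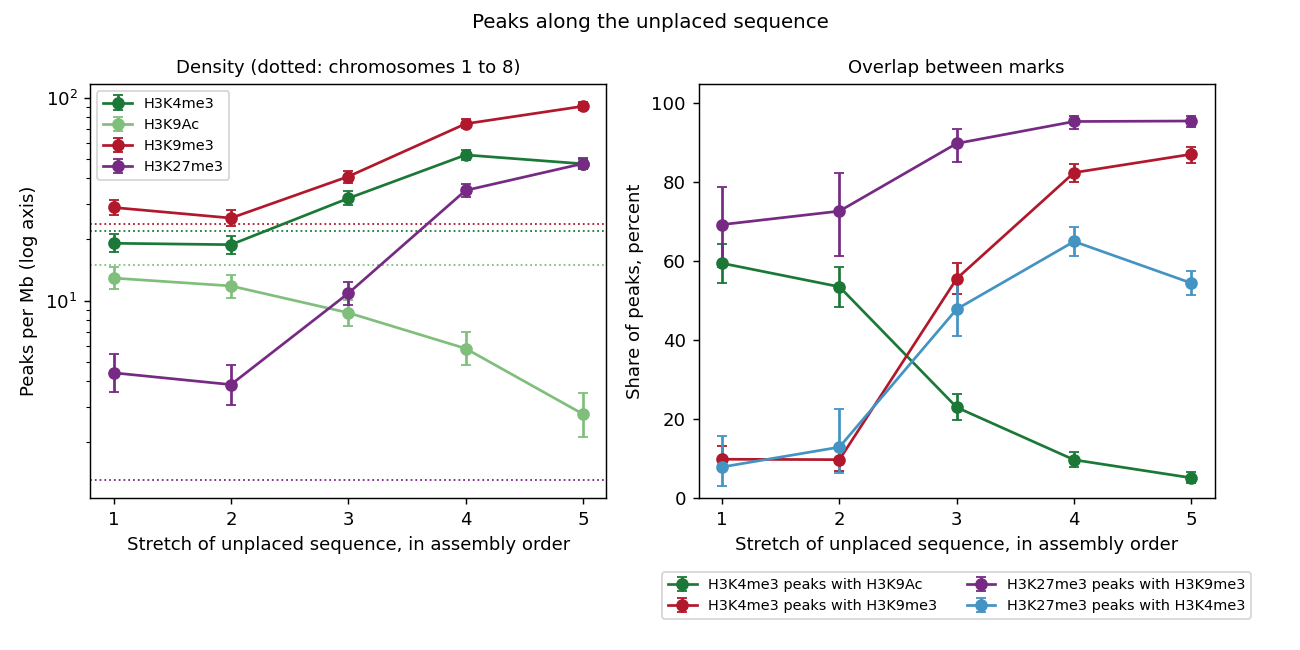
Peaks per Mb (left, log axis, exact 95% Poisson intervals, dotted lines for chromosomes 1 to 8) and share of peaks that overlap another mark (right, percent, exact 95% binomial intervals) in 5 successive stretches of unplaced sequence, each of 20 Mb but the last of 23.2 Mb. From the first to the last, H3K27me3 rises from 4.40 to 47.3 peaks per Mb and H3K9Ac falls from 12.9 to 2.76, while the share of H3K4me3 peaks with H3K9Ac falls from 59.5% to 5.20%.

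In windows of 1 Mb, no single window carried this pattern. The 63 whole windows beyond 40 Mb held from 1 to 72 H3K27me3 peaks with a median of 36, and 55 of them exceeded 9, the 99th percentile of the 3419 autosomal windows. In 16 of them the number exceeded the highest autosomal window, which held 45. The 40 windows before held from 0 to 14 with a median of 2. Across chrUn as a whole, the marks also varied together in another way than on the autosomes. Across the 103 windows of chrUn, H3K9me3 and H3K27me3 had a Spearman correlation of 0.91, against 0.01 across the 3419 autosomal windows, and H3K4me3 correlated with H3K9Ac at -0.19 against 0.96 and with H3K9me3 at 0.67 against -0.36. The values for chrUn pool windows before and after 40 Mb, which differed in level for every mark. Median numbers before and after were 16 and 47 for H3K4me3, 10 and 5 for H3K9Ac, and 24 and 77 for H3K9me3. Correlations within each stretch were not computed, and the part of this contrast in the values was not tested. These windows share libraries and input, and the values are a description.

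The 3 H3K4me3 and 3 H3K9Ac peaks ranked first did not coincide with MORs, although others with a score of 3100 did. On chrUn 59 H3K4me3 and 11 H3K9Ac peaks scored at least 3100, and ties were ranked by width. A top score of 3100 was also reached by H3K4me3 peaks with H3K9me3 only or H3K27me3 only. The same score was reached by H3K9Ac peaks with H3K4me3 and H3K9me3. The strongest MOR peaks varied in their company. The 3 highest-scoring H3K4me3 peaks, chrUn:14210033-14218232 (score 3215), chrUn:6968436-6972165 (3164.44) and chrUn:17951244-17955275 (3163.93), all lay in the first 20 Mb and overlapped H3K9Ac but no MOR. Of the 3 H3K9Ac peaks ranked first, all at a score of 3100, near which scores reach a ceiling, chrUn:14204299-14217843 covered 95.3% of the first of these H3K4me3 peaks, chrUn:14155789-14168076 lay close by, and chrUn:68627533-68640593 was an acetylated peak of 13061 bases inside the later part. All 3 also overlapped H3K4me3 and neither MOR. The widest H3K9me3 peak at that score, chrUn:33271494-33346814, was 75321 bases wide and only 5.66% of it was shared with H3K27me3. In the second, chrUn:43650431-43701305, 55.6% was shared. The third, chrUn:41330517-41373210, was also the widest region with the 3 methylation marks. Its 42694 bases were a single H3K9me3 peak, within which 6 H3K4me3 peaks covered 36.6% and 2 H3K27me3 peaks covered 24.4%, with top scores of 218 and 76.9. The next in width were chrUn:9213292-9246391, with H3K27me3 over 43.5% and H3K4me3 over 14.3%, and chrUn:54918908-54948950, with 9.62% and 50.6%.

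The strongest H3K27me3 peak was chrUn:14696217-14719786. It was 23570 bases wide with a score of 1013, above the highest on chr1 to chr8 at 978, and it overlapped all 3 other marks. It lay in the widest region with 4 marks, chrUn:14690709-14724906, where 4 H3K9Ac peaks (best score 1723), 3 H3K4me3 peaks (best 3100) and 3 H3K9me3 peaks (best 492) covered 53.1%, 43.3% and 45.8% of 34198 bases. The next regions with 4 marks by width were chrUn:9190078-9207276, mostly covered by H3K27me3 (92.0%) and H3K9me3 (86.5%), and chrUn:15042133-15054279, mostly covered by H3K4me3 (72.2%) and H3K9Ac (61.4%). The second H3K27me3 peak, chrUn:40310593-40330422 (score 1007), was 99.1% inside H3K9me3, and the third, chrUn:40383980-40395878 (score 577), 33.4%. Neither overlapped a MOA. The chain with most peaks, chrUn:85039925-85387041, held 94 in 347117 bases: 46 of H3K9me3, 26 of H3K27me3, 21 of H3K4me3 and 1 of H3K9Ac. The next chains, chrUn:97902605-98092510 with 55 peaks and chrUn:51146757-51277827 with 54, held no H3K9Ac peak.

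The study's list of candidate imprinted genes places NDUFV1, which encodes a subunit of mitochondrial complex I, and ANKFY1, which encodes an endosomal protein with ankyrin repeats and a FYVE domain, on chrUn. Both lie in the first 40 Mb, and every deposited peak was considered around them. Nearest to the region amplified for NDUFV1, at a distance of 2004 bases, was an H3K4me3 peak at chrUn:7778216-7780962 (score 1153) that overlapped an H3K9Ac peak at chrUn:7778745-7780553 (score 239). An H3K9me3 peak at chrUn:7780206-7782805 (score 154) ran into their edge and shared 757 of its 2600 bases with H3K4me3 and 348 with H3K9Ac. The nearest and, within 100 kb, single H3K27me3 peak had a score of 40.9, under the threshold. At ANKFY1 the nearest MOA peaks were stronger and farther away, with H3K4me3 at chrUn:38498263-38502718 (score 1274) and H3K9Ac at chrUn:38498890-38502932 (score 481), 17.4 and 18.1 kb from the region. The nearest H3K9me3 peak, chrUn:38495614-38496962 (score 51.4), shared no base with either, and of 10 H3K9me3 peaks within 100 kb none overlapped H3K9Ac and 1 overlapped H3K4me3, by 239 bases. The single H3K27me3 peak within 100 kb, chrUn:38572007-38574562 (score 82.3), lay 91.2 kb away and shared bases with H3K9me3. The amplified regions were chosen in the untranslated end of each gene, away from its start, and the positions of the promoters were not used here. The study's criterion was stated for putative promoters, so peaks around the amplified regions do not show whether it was met. The study chose its candidates on these same libraries, so their marks are no independent evidence.

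The threshold of 50 applied to the MOR lists, which reach down to 30. It kept 67.1% of deposited H3K27me3 peaks on chrUn and 33.7% of those on chr1 to chr8, and 78.8% and 53.8% of H3K9me3 peaks. Peaks just below it were like those just above. The 229 H3K27me3 peaks on chrUn with scores from 45.03 to 49.97 had a median width of 2102 bases and 79.9% overlapped H3K9me3, and the 181 with scores from 50.09 to 54.9 had 2487 bases and 81.8%.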

How the data were processed

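Per the labels and the Methods, the authors removed reads of low quality, aligned the rest to MonDom5 with Bowtie under a best-alignment setting, and ran MACS on each library with the input as background. The submitters' processing notes list CASAVA 1.7, Bowtie 1.1.2 and MACS 1.0.1. The study's summary gives the H3K27me3 library the most aligned reads and the H3K9me3 library the fewest. The Results speak of uniquely mapped reads and the Methods of best alignments, so the treatment of reads that match several repeat copies is unclear. Copies absent from an assembly can add reads to those present. Neither was measured here. The deposited score multiplies the negative log10 of the MACS p-value by 10, has a ceiling near 3100, and was compared only within a mark.

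Analyses used Python 3.11.15 with numpy 2.4.6, pandas 2.3.3 and scipy 1.17.1. In 2 peaks a start below 0 was set to 0. Peaks with a score of at least 50 were kept. Length was taken as the largest peak end in any list. Peaks overlapped if they shared 1 base, the study's criterion. Overlaps were tested on simulated data and checked against bedtools 2.31.1. Intervals are exact 95% Poisson (counts) or binomial (shares) and treat peaks as independent. Windows of 1 Mb took peaks by midpoint. Named regions are the 3 highest-scoring peaks of each mark (ties by width), the 3 widest regions with the 3 methylation marks or with 4 marks, the 3 chains with most peaks, and the candidate genes on chrUn, whose positions came from the study's supplementary list. The members, classes and rules were chosen with earlier results of these data known. Sequences of the regions and the input library were not analysed here.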

Additional observations from a re-analysis of the deposited data

How the results depend on the processing

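Results were compared as the ratio of chrUn to chr1 to chr8, and a ratio was taken as changed when it moved by over 1.5 times or crossed 1. Of 84 values under other thresholds, criteria and merging distances, for 25 results, 64 did not change, 18 moved and 2 crossed 1. All deposited H3K4me3 and H3K9Ac peaks scored at least 50. The setting with every deposited peak therefore could not change values resting on these marks alone, and such values are counted among the 64. The shares of H3K4me3 peaks with a neighbour within 10 kb crossed at a score of at least 100 (ratio 0.905) and those of H3K9Ac at 1 kb (1.20). At a score of at least 100, density ratios became 1.02 for H3K4me3, 4.89 for H3K9me3 and 56.6 for H3K27me3, combination ratios 143 for the 3 methylation marks and 59.6 for H3K9me3 with H3K27me3, overlap ratios 1.53 for H3K27me3 with H3K4me3 and 3.76 for H3K9me3 with H3K4me3, and the H3K9me3 neighbour ratio 2.58. With every deposited peak, the ratio for H3K27me3 was 8.08 in density and 7.01 in the share scoring at least 100, and combination ratios were 6.83 for H3K9me3 with H3K27me3 and 6.96 for H3K4me3 with H3K9me3, the latter 5.72 with regions merged within 1000 bases. With 50% of the peak covered, overlap ratios were 31.0 for H3K27me3 with H3K4me3, 14.9 for H3K9me3 with H3K4me3 and 39.96 for H3K4me3 with H3K9me3. Within 1 kb, neighbour ratios were 2.77 for H3K9me3 and 4.31 for H3K27me3.

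The first 40 Mb of chrUn alone were added after seeing the data, and of 25 values 6 did not change. Density ratios were 0.866 for H3K4me3 (crossing 1), 0.826 for H3K9Ac, 1.13 for H3K9me3 and 3.15 for H3K27me3, and width ratios 1.33 for H3K9me3 and 1.19 for H3K27me3. Ratios of the share scoring at least 100 were 1.03 for H3K4me3 and 1.03 for H3K9Ac (both crossing 1) and 1.26 for H3K27me3. Combination ratios were 7.99 for the 3 methylation marks, 4.78 for H3K9me3 with H3K27me3, 2.34 for H3K4me3 with H3K9me3 and 0.819 for H3K4me3 with H3K9Ac. Overlap ratios were 1.21 for H3K27me3 with H3K4me3, 1.82 for H3K9me3 with H3K4me3, 2.50 for H3K4me3 with H3K9me3 and 0.961 for H3K4me3 with H3K9Ac, and neighbour ratios 0.899 for H3K4me3 (crossing 1) and 1.38 for H3K27me3. The cause of these changes was not tested. No paired analysis was possible because each mark had a single library. Read depth on chrUn is unknown here, and without replicates the spread of these peak numbers between animals or cultures cannot be stated.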
